A study of Mus musculus with 13 samples.

Results

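Wdfy1, Rab4a, Nnt, Entpd4 and Pisd-ps3 are 5 genes whose signals in mouse quadriceps muscle set a control group, a single array or a whole pair of groups apart without following Trp53inp2, the gene that the study manipulated. They were picked for exactly that from these arrays, as differences that an inherited background could give, so their levels are described here without a test. They are measured by 13 probe sets (sets of short DNA probes on the array that together read 1 transcript) of 45037 on the array, and they are 5 of the 17097 genes with a probe set of their own. Of the 13 probe sets, 11 passed the filter on dim signals, a mean log2 signal of at least 4.9. They comprise 4 probe sets of Wdfy1 (3 past the filter), 2 of Rab4a, 2 of Nnt, 2 of Entpd4 (1 past the filter) and 3 of Pisd-ps3. A further 3 probe sets that match both Pisd-ps3 and another gene were not counted.

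Total RNA came from quadriceps of 13 male mice aged 4 months, 1 Affymetrix perfect-match array per animal. The series names ablation and gain of function of DOR, an earlier name of Trp53inp2, and SKM-KO (n = 3) and SKM-Tg (n = 4) were read as these. From the names alone, SKM-KO was set against C (n = 3) and SKM-Tg against Wt (n = 3). All animals are labelled C57Bl/6, and all ate standard chow. The labels give no substrain, litter, allele, or promoter driving a transgene or Cre, so the groups' breeding history is not known here. C and SKM-KO are called the ablation pair below, and Wt and SKM-Tg the transgenic pair.

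Inbred mouse strains are nearly identical within a colony, but substrains kept apart collect fixed differences. A mutant line also keeps a stretch of the founder's chromosome around its mutation. Such differences can raise or lower the transcript of a single gene in every tissue, whatever the gene under study does. Nnt is a well-known example: C57BL/6J mice carry an inactivating deletion in it that other C57BL/6 substrains lack.

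Trp53inp2 itself checks the labels. Its 1 probe set read 11.06, 11.19 and 11.15 in C and 8.58, 8.79 and 8.99 in SKM-KO. In the transgenic pair it read 11.20, 11.46 and 11.0 in Wt and 11.11, 11.03, 11.28 and 11.24 in SKM-Tg. The signal was low in all 3 SKM-KO arrays and in no other. The difference SKM-KO minus C was -2.35 (SE 0.14, limma adjusted p = 1.07e-05), whereas SKM-Tg overlapped Wt, so this probe set does not check the SKM-Tg label.

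Array medians lay between 4.85 and 4.94. Wt 2 stood apart, with 218 of the 22519 tested probe sets more than 1 log2 unit below every other array, while the other 12 arrays had from 0 to 7. All 8 skeletal fibre markers were measured, and their mean level lay between 12.34 and 12.52 in every array. Among the other marker lists, 4 of 6 fat cell markers were measured, at a mean level of 5.54 to 6.11 in C, 5.35 to 7.56 in SKM-KO, 5.61 to 7.66 in Wt and 7.22 to 8.87 in SKM-Tg. Of 6 liver plasma protein genes, all were measured, at 5.27 to 6.69 in C and 4.88 to 5.82 elsewhere. These are mean log2 levels over each list, and a bulk sample cannot separate fewer cells from less RNA per cell.

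**Figure D1:**
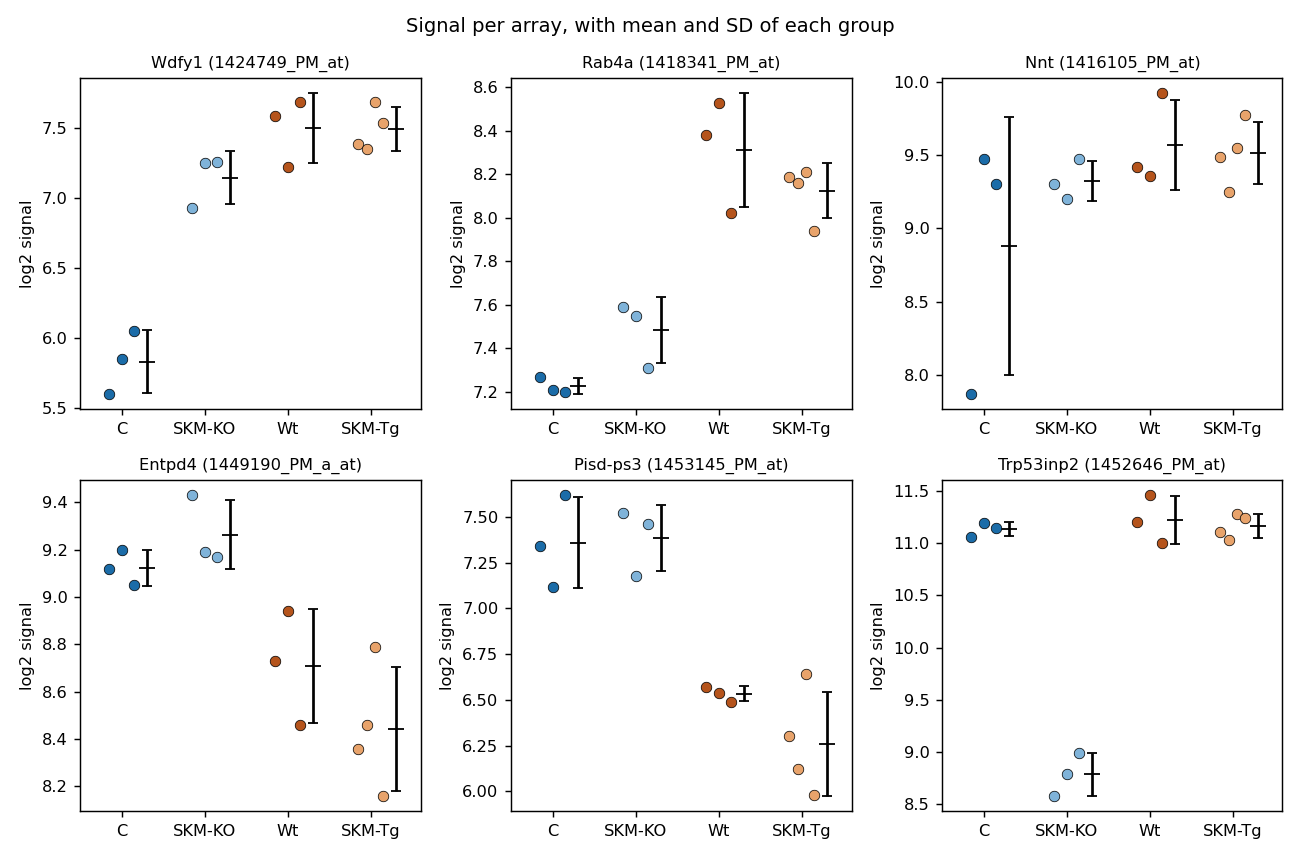
Log2 signal (vertical axis) in each array, 1 point per animal, for 1 probe set of each of the 5 genes and for Trp53inp2, by group; the bar beside the points gives the mean and SD. Wdfy1 is low in C alone, Rab4a is high and Entpd4 and Pisd-ps3 are low in Wt and SKM-Tg, and Nnt is low in C 1 alone.

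Wdfy1 encodes a protein with WD repeats and a FYVE domain, which binds a phosphoinositide of early endosomes, and it is known as an adaptor of Toll-like receptor signalling. It was low in C and high in the other 3 groups, so that SKM-KO differed from its own control and resembled the transgenic pair. Probe set 1424749_PM_at read 5.60, 5.85 and 6.05 in C, against 6.93, 7.25 and 7.26 in SKM-KO. It read 7.59, 7.22 and 7.69 in Wt and 7.39, 7.35, 7.69 and 7.54 in SKM-Tg. The 3 C arrays lay below all 10 others, whose mean was 7.39 ± 0.24 (SD, n = 10) against 5.83 ± 0.22 (SD, n = 3) in C. That distance of 1.56 is a 2.95-fold difference on the linear scale.

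Probe set 1437358_PM_at gave the same order. Its values were 5.51, 5.84 and 5.83 in C, 6.95, 7.20 and 7.10 in SKM-KO, 7.39, 6.80 and 7.54 in Wt, and 7.35, 7.23, 7.10 and 7.28 in SKM-Tg. Again C lay below every other array, by 2.77-fold on average. The difference from C was 1.36 (SE 0.17) for SKM-KO and 1.52 (SE 0.17) for Wt; both subtract the same C arrays, and the latter was 1.74 without Wt 2. Between SKM-Tg and Wt the values of both probe sets stood within 0.01 of 0, with SEs of 0.15 and 0.16. For 1437358_PM_at the value was -0.22 without Wt 2.

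Arranged by level in these probe sets, the groups run C, SKM-KO, then Wt and SKM-Tg together, and the last 3 overlap in 1437358_PM_at. Of all tested probe sets, 0.782% had every C array below every other array. Only 2 of them, 0.00888%, had a gap over 0.5, and these are the Wdfy1 probe sets, with gaps of 0.96 and 0.88. The next in order was Pnmt, which makes adrenaline, with a gap of 0.23; it was named after the values were seen. Since Wdfy1 was chosen for this pattern, its place at the top is a description.

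The other Wdfy1 probe sets split. The dim 1435588_PM_at, which did not pass the filter, read 3.73, 3.53 and 3.50 in C and from 3.86 to 5.09 elsewhere, and so kept C lowest by a gap of 0.12. The brightest, 1453426_PM_a_at, hardly separated the groups, with means of 7.18 ± 0.09 in C, 7.36 ± 0.02 in SKM-KO, 7.46 ± 0.18 in Wt (SD, n = 3 each) and 7.27 ± 0.16 (SD, n = 4) in SKM-Tg. Its SKM-Tg arrays, from 7.10 to 7.48, spanned the whole range of C. Over the 13 arrays its correlation was 0.41 with 1424749_PM_at, whereas 1424749_PM_at and 1437358_PM_at had one of 0.97. The _a_at suffix marks probes shared by alternative transcripts of a gene. Which transcripts the 4 probe sets read is not given, so the data do not say whether 1 transcript or all of them differ.

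**Figure D2:**
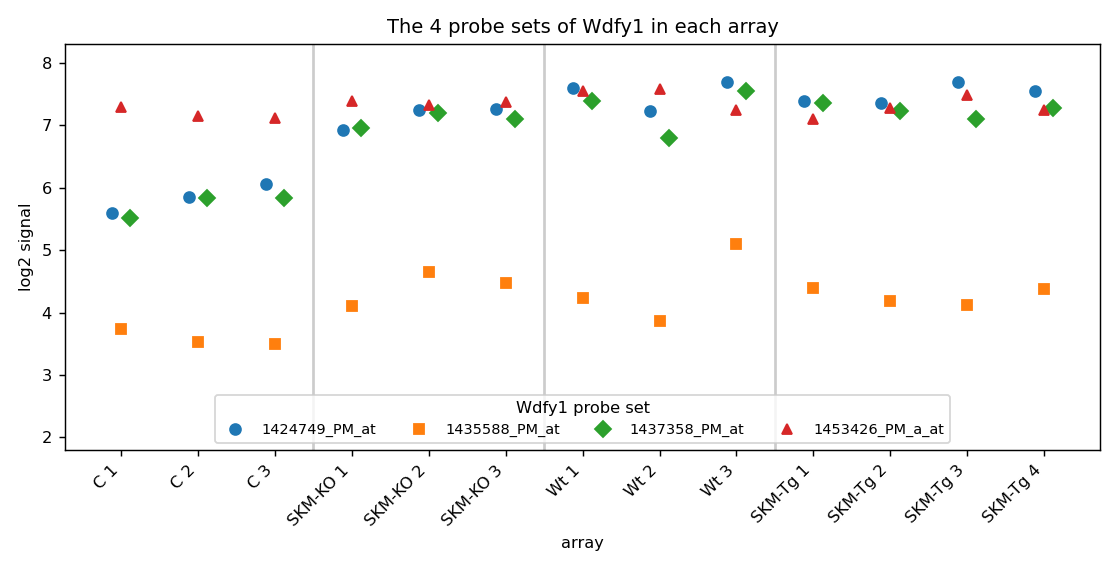
Log2 signal of the 4 Wdfy1 probe sets (vertical axis) in each of the 13 arrays (horizontal axis, by group). In 1424749_PM_at, 1437358_PM_at and 1435588_PM_at the 3 C arrays are the lowest, while 1453426_PM_a_at stays between 7.10 and 7.58 throughout.

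The genes beside Wdfy1 on its chromosome were compared next. For each gene, up to 10 nearest measured genes per side were taken from the order of genes in RefSeq. Of the 20 neighbours of Wdfy1, 0 passed limma's test in Wt minus C and 0 in SKM-KO minus C, where 0.0178% and 0.0133% of all probe sets passed. Those that passed were probe sets of Wdfy1, Rab4a and Trp53inp2 alone, and SKM-Tg minus Wt called 0. None of these genes is among the neighbours or in the lists below. The 0 calls in these comparisons, here and below, were thus fixed in advance and say nothing about neighbours or pathways. The median difference was -0.03 in Wt minus C and 0.00 in SKM-KO minus C. Over all genes, each by its brightest probe set, it was 0.06 and 0.01. Mrpl44, a mitochondrial ribosomal protein gene next to Wdfy1, stood at -0.07 and 0.02, and Kcne4, a potassium channel subunit on the other side, at 0.02 and -0.03. Those with the smallest p in Wt minus C were Rhbdd1, a rhomboid protease of the endoplasmic reticulum, at 0.38 (SE 0.13) and Irs1, the insulin receptor substrate, at -0.77 (SE 0.32); in SKM-KO minus C they stood at 0.05 and -0.02. Rhbdd1 and Mff, a mitochondrial fission factor, were the 2 of 20 in which C did not overlap the other arrays; Mff stood at -0.34 in Wt minus C, with C highest. Of all tested probe sets 0.782% had C below and 0.311% had C above every other array. Between the pairs 4 of the 20 passed, beside 14.0% of all probe sets and 14.7% of all genes, each by its brightest probe set. Rhbdd1 (0.31) and Pax3 were higher in the transgenic pair and Irs1 (-0.89) and Acsl3 (-0.57) lower, and without C 2 all 4 calls were lost.

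The pathway around Wdfy1 was followed through a list of endosomal FYVE proteins and the Toll-like receptors that use the adaptor. Of 16 listed genes 11 were measured, and 0 passed in Wt minus C, SKM-KO minus C or SKM-Tg minus Wt, as was fixed in advance. The shares of all probe sets that passed were 0.0178%, 0.0133% and 0.0%. Wdfy2, the closest relative of Wdfy1, read 7.97 ± 0.04 in C, 7.93 ± 0.12 in SKM-KO, 7.62 ± 0.33 in Wt (SD, n = 3 each) and 7.75 ± 0.04 (SD, n = 4) in SKM-Tg. C had the highest mean there, but the SKM-KO arrays (7.83 to 8.07) spanned the C arrays (7.93 to 8.01). Tlr3, a receptor for double-stranded RNA, stood at -0.49 in Wt minus C and -0.02 in SKM-KO minus C, and Tbk1, the kinase below it, at -0.58 and 0.08. Hgs, an endosomal sorting protein, stood at 0.71 and -0.06. It was the 1 gene of the 11 that passed between the pairs, beside 14.0% of all probe sets. Hgs was higher in the transgenic pair (0.55, limma adjusted p = 0.0440), a call kept in 2 of 13 fits without 1 array and lost without C 2.

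Transcripts that followed Wdfy1 most closely over the 13 arrays depended on the probe set. For 1453426_PM_a_at these were Reep5 (r = 0.934) and 2 probe sets of Gsn, the actin-severing protein gelsolin (0.930 and 0.921). For 1424749_PM_at they were the ribosomal protein gene Rpl9 (0.922), Prdm2 (0.863) and Tacc1 (0.842), and for 1437358_PM_at Usp29 (0.842), Tacc1 (0.839) and Csnk2a2 (0.837). The arrays of a pair share their group, and within the transgenic pair (7 arrays) Tacc1 had -0.58 with 1424749_PM_at and 0.08 with 1437358_PM_at, while Rpl9 had 0.57. Nerve and Schwann cell markers, of which 4 of 6 were measured and passed the filter, had mean levels of 6.79 to 6.89 in C, 6.92 to 7.46 in SKM-KO, 7.11 to 7.35 in Wt and 6.88 to 7.55 in SKM-Tg. Their part in the Wdfy1 values was not tested.

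Rab4a encodes a small GTPase of early endosomes that returns receptors and transporters to the cell surface; in muscle it acts in the traffic of the insulin-responsive glucose transporter. It separated the pairs: it was higher in Wt and SKM-Tg than in C and SKM-KO. Probe set 1418341_PM_at read 7.27, 7.21 and 7.20 in C and 7.59, 7.55 and 7.31 in SKM-KO. In the transgenic pair it read 8.38, 8.53 and 8.02 in Wt and 8.19, 8.16, 8.21 and 7.94 in SKM-Tg. All 7 arrays of the transgenic pair lay above all 6 of the ablation pair, with a gap of 0.35.

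Group means were 7.22 ± 0.04 in C, 7.48 ± 0.15 in SKM-KO, 8.31 ± 0.26 in Wt (SD, n = 3 each) and 8.12 ± 0.13 (SD, n = 4) in SKM-Tg. Between the pairs, each taken as the mean of its group means, the difference was 0.86 (SE 0.09) or 1.82-fold. Probe set 1449048_PM_s_at, whose suffix marks probes shared by several transcripts, gave 8.37 ± 0.05 in C, 8.68 ± 0.18 in SKM-KO, 9.43 ± 0.26 in Wt (SD, n = 3 each) and 9.23 ± 0.13 (SD, n = 4) in SKM-Tg. There too the pairs did not overlap, with a gap of 0.23, and the probe sets had a correlation of 0.99 over the 13 arrays. Of all tested probe sets 2.94% had both transgenic groups above both ablation groups, and 4 had a larger gap than 1418341_PM_at. By level the order was C, SKM-KO, SKM-Tg, Wt, with SKM-Tg and Wt overlapping.

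Within the ablation pair C lay below SKM-KO in both probe sets, by 0.26 (SE 0.14) and 0.32 (SE 0.14). The gap between them was 0.04 and 0.11, and it closed to -0.05 and -0.01 with quantile normalization. With cyclic loess it was -0.03 and 0.04. SKM-Tg minus Wt stood at -0.19 (SE 0.13) and -0.20 (SE 0.13).

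Of the 20 neighbours of Rab4a, 0 passed in Wt minus C, as was fixed in advance. In the transgenic pair against the ablation pair 1 rose, where 14.0% of all probe sets passed limma's test in either direction. That gene is Dbndd1, at 0.31 (limma adjusted p = 0.0418), and its call was lost in 11 of the 13 fits that left out 1 array, with an adjusted p of up to 0.100 without C 2. The median of the 20 was 0.22 for that comparison and 0.24 in Wt minus C. Over all genes, each by its brightest probe set, it was 0.04 and 0.06. In each comparison 16 of the 20 were positive, and the share of all genes that were positive was not counted. Ccsap, the nearest measured gene after Rab4a, stood at 0.29 in Wt minus C and Rhou, a small GTPase gene before it, at -0.04. Taf5l stood at 0.40 in Wt minus C and at 0.19 in SKM-KO minus C, and Agt, the angiotensin precursor, at 1.04 and -0.02.

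Other genes of the recycling route, 19 of 21 listed, gave 0 calls in Wt minus C, SKM-KO minus C and SKM-Tg minus Wt. Of all probe sets 0.0178%, 0.0133% and 0.0% passed there, and the 0 calls of the list were again fixed in advance. Between the pairs 3 of the 19 passed, beside 14.0% of all probe sets. Rab5c rose in the transgenic pair (0.39, limma adjusted p = 0.0436), and Rab5a (-0.71, adjusted p = 0.0382) and Rab11a (-0.35, adjusted p = 0.0409) fell. Each of these 3 calls was kept in only 2 of the 13 fits without 1 array, and without C 2 all 3 were lost. The paralogue Rab4b read 4.92 ± 0.23 in C, 4.96 ± 0.20 in SKM-KO, 5.41 ± 0.47 in Wt (SD, n = 3 each) and 5.27 ± 0.25 (SD, n = 4) in SKM-Tg, close to the filter and with overlapping groups. Tfrc, the transferrin receptor, a standard cargo of this route, stood at -0.88 in Wt minus C, Rab11b at 0.44 and Rabgef1, an activator of Rab5, at 0.26. None of these passed.

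Rab4a had many followers. Of 16421 probe sets of other genes, 93 had a correlation over 0.9 with 1449048_PM_s_at and 49 one under -0.9. The closest were Gtf2ird1 (0.961), the histone demethylase gene Riox1 (0.960) and Creg1 (0.952). Riox1 had means of 6.37 in C, 6.59 in SKM-KO, 7.42 in Wt and 7.19 in SKM-Tg. Within the ablation pair (6 arrays) these correlations were 0.90, 0.69 and 0.73, and within the transgenic pair (7 arrays) 0.99, 0.95 and 0.92.

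Nnt encodes the transhydrogenase of the inner mitochondrial membrane, which uses the proton gradient to make NADPH for the defence against peroxides. It set 1 array apart and no group. Probe set 1416105_PM_at read 7.87 in C 1 but 9.47 and 9.30 in the other C arrays. It read 9.30, 9.20 and 9.47 in SKM-KO, 9.42, 9.36 and 9.92 in Wt, and 9.49, 9.25, 9.55 and 9.77 in SKM-Tg. The 12 arrays other than C 1 had a mean of 9.46 ± 0.21 (SD, n = 12), so that C 1 was 1.59 below them, a 3.01-fold lower signal.

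Probe set 1456573_PM_x_at repeated this, at 9.03 in C 1 against 10.51 ± 0.19 (SD, n = 12) elsewhere, a distance of 1.48 or 2.79-fold. Its suffix marks probes that can match other sequences, yet the probe sets had a correlation of 0.99. The signal in C 1 was the lowest of the 13 and remained above the filter of 4.9. Of all tested probe sets, 8.71% had C 1 as the lowest array and 0.0311% had it lowest by more than 1. These are 7 probe sets, and 2 of them are the Nnt probe sets, with gaps of 1.33 and 1.26.

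The low C 1 value makes the group comparisons of Nnt depend on 1 animal. SKM-KO minus C was 0.45 (SE 0.33) and 0.54 (SE 0.30) in the 2 probe sets, and without C 1 it was -0.06 and 0.09. Wt minus C was 0.69 and 0.67, and 0.19 and 0.22 without C 1. SKM-Tg minus Wt was -0.05 in both. The 4 groups therefore overlap, and without C 1 their order carries no difference beyond the spread.

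The other 4 genes did not have C 1 apart by as much: Wdfy1 had it lowest by gaps of 0.24 and 0.31 in 1424749_PM_at and 1437358_PM_at, and Rab4a, Entpd4 and Pisd-ps3 did not have it lowest in the probe sets past the filter.

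Nnt lies near the end of its chromosome in RefSeq's order, so 16 neighbours were measured. Their difference between C 1 and the mean of the other arrays ran from -0.33 to 0.41, and 0 of 16 were lower in C 1 by more than 1. Mrps30, the nearest measured gene on one side, stood at -0.19 and Paip1, next to Nnt on the other, at 0.24. In Wt minus C 0 of 16 passed, as was fixed in advance. Mocs2, of molybdenum cofactor synthesis, stood at -0.97 (SE 0.30) and Pelo, a ribosome rescue factor, at 0.48 (SE 0.15). Between the pairs Parp8 and Itga1, a collagen receptor subunit, were lower in the transgenic pair (limma adjusted p = 0.0357 and 0.0318); these are 2 of 16 neighbours, beside the 14.0% of all probe sets, and both calls were kept in 3 fits without 1 array, of 13 for Parp8 and of the 5 in which Itga1 passed the filter.

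Among 17 genes of mitochondrial NADPH supply and peroxide defence, 12 were measured. None passed in Wt minus C, SKM-KO minus C or SKM-Tg minus Wt, as was fixed in advance, and the medians were 0.00, 0.01 and -0.01. The shares of all probe sets that passed were 0.0178%, 0.0133% and 0.0%. Idh2, the other large source of mitochondrial NADPH, stood at -0.02 in Wt minus C. Txnrd2, the mitochondrial thioredoxin reductase, stood at 0.47, Glrx2, a mitochondrial glutaredoxin, at -0.32, Nadk2, the mitochondrial NAD kinase, at -0.57 and Gpx4, a peroxidase of lipid peroxides, at 0.27. Between the pairs 2 of the 12 genes passed, beside 14.0% of all probe sets. Txnrd2 rose in the transgenic pair (0.39, limma adjusted p = 0.0388) and Glrx2 fell (-0.29, adjusted p = 0.0457). Both calls were kept in 2 of 13 fits without 1 array.

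No probe set of another gene reached a correlation of 0.9 with Nnt over the 13 arrays, out of 16421 compared. The nearest were Kdm1a, a histone demethylase, at 0.893, Edem1 at 0.869 and Gcdh, a mitochondrial dehydrogenase, at 0.858. Within the transgenic pair, which leaves C 1 out, these were 0.88, 0.67 and 0.61 over 7 arrays.

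Entpd4 encodes a nucleoside diphosphatase of the Golgi and lysosomes, which clears the nucleotide left over from sugar transfer. It was lower in the transgenic pair than in the ablation pair. Probe set 1449190_PM_a_at read 9.12, 9.20 and 9.05 in C and 9.43, 9.19 and 9.17 in SKM-KO. It read 8.73, 8.94 and 8.46 in Wt and 8.36, 8.46, 8.79 and 8.16 in SKM-Tg. All 7 transgenic arrays lay below all 6 of the ablation pair, with a narrow gap of 0.11 that was set by Wt 2 and was 0.25 without it.

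Group means were 9.12 ± 0.07 in C, 9.26 ± 0.14 in SKM-KO, 8.71 ± 0.24 in Wt (SD, n = 3 each) and 8.44 ± 0.26 (SD, n = 4) in SKM-Tg. The difference between the pairs was -0.62 (SE 0.11) or 1.53-fold. In order the groups were SKM-KO, C, Wt and SKM-Tg, and neighbours within each pair overlapped. Of all tested probe sets 2.72% had both transgenic groups below both ablation groups, and 130 had a larger gap. The dim probe set 1431761_PM_at did not pass the filter; its transgenic arrays (4.04 to 4.57) overlapped the ablation pair (4.29 to 4.68), with a mean difference of -0.24 (SE 0.10). RefSeq lists a separate gene, Entpd4b, close to Entpd4, and no probe set of its own was measured. Which of the copies the bright probe set reads was not tested.

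Slc25a37 is the nearest measured gene before Entpd4 and encodes mitoferrin, the importer of iron into mitochondria. Of all 16422 probe sets of other genes compared, a pair of Slc25a37 probe sets followed Entpd4 most closely, each with a correlation of 0.955. Both carry the _x_at suffix, which marks probes that can match other sequences. Within the ablation pair they had 0.86 (1438177_PM_x_at) and 0.93 (1447900_PM_x_at) over 6 arrays, and within the transgenic pair 0.92 and 0.88 over 7. In the ablation pair SKM-KO 1 was the highest array in Entpd4 and in both of these probe sets, well apart from the other 5, and how far the correlation rests on it was not tested. Probe set 1438177_PM_x_at read 10.85 ± 0.01 in C, 10.95 ± 0.16 in SKM-KO, 10.44 ± 0.11 in Wt (SD, n = 3 each) and 10.31 ± 0.10 (SD, n = 4) in SKM-Tg. Its arrays ran from 10.81 to 11.12 in SKM-KO and from 10.23 to 10.52 in the transgenic groups, so the pairs did not overlap.

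Between the pairs Slc25a37 1438177_PM_x_at fell by 0.53 (limma adjusted p = 0.0106). The call was kept in all 13 fits that left out 1 array, with an adjusted p of at most 0.0438, without C 2. The remaining Slc25a37 probe set, 1417750_PM_a_at, differed: it read 6.00 in C, 6.02 in SKM-KO, 6.00 in Wt and 6.12 in SKM-Tg on average, and its correlation with Entpd4 was -0.46. Mitoferrin is abundant in erythroid cells. Of 5 erythroid markers 3 were measured and passed the filter, at mean levels of 7.72 to 7.77 in C, 7.78 to 7.88 in SKM-KO, 7.90 to 8.70 in Wt and 7.87 to 8.33 in SKM-Tg. Their part in the Slc25a37 values was not tested.

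Of the 20 measured neighbours of Entpd4, 5 passed between the pairs, 3 higher and 2 lower in the transgenic pair. There 14.0% of all probe sets passed, and 14.7% of all genes, each by its brightest probe set. The difference was positive in 16 of the 20, with a median of 0.10, and in Wt minus C in 15 of the 20, with a median of 0.21. Here too the share of all genes that were positive was not counted. Over all genes, each by its brightest probe set, the medians were 0.04 and 0.06. Besides Slc25a37, Kctd9 fell (-0.72, limma adjusted p = 0.0292), while Chmp7, of the membrane-remodelling machinery, rose (0.28, adjusted p = 0.0382), as did Ccar2 (0.31, adjusted p = 0.0471) and Sorbs3, the adhesion adaptor vinexin (0.68, adjusted p = 0.0307). These 4 calls were all lost without C 2, with adjusted p-values of 0.0820 to 0.101. Loxl2, the nearest on the other side, stood at 0.04. In Wt minus C, where Slc25a37 stood at -0.41 (SE 0.11) and Sorbs3 at 0.78, 0 of 20 passed, as was fixed in advance.

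Over the neighbours of all 4 genes with a known place, 12 of 76 passed between the pairs, 6 in each direction; of all genes, each by its brightest probe set and with the adjustment over all probe sets, 14.7% passed. The number kept without a single array ran from 1 (without C 2, C 3, SKM-KO 2, SKM-KO 3, Wt 1, SKM-Tg 2 or SKM-Tg 3) to 12 (without SKM-Tg 1).

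**Figure D3:**
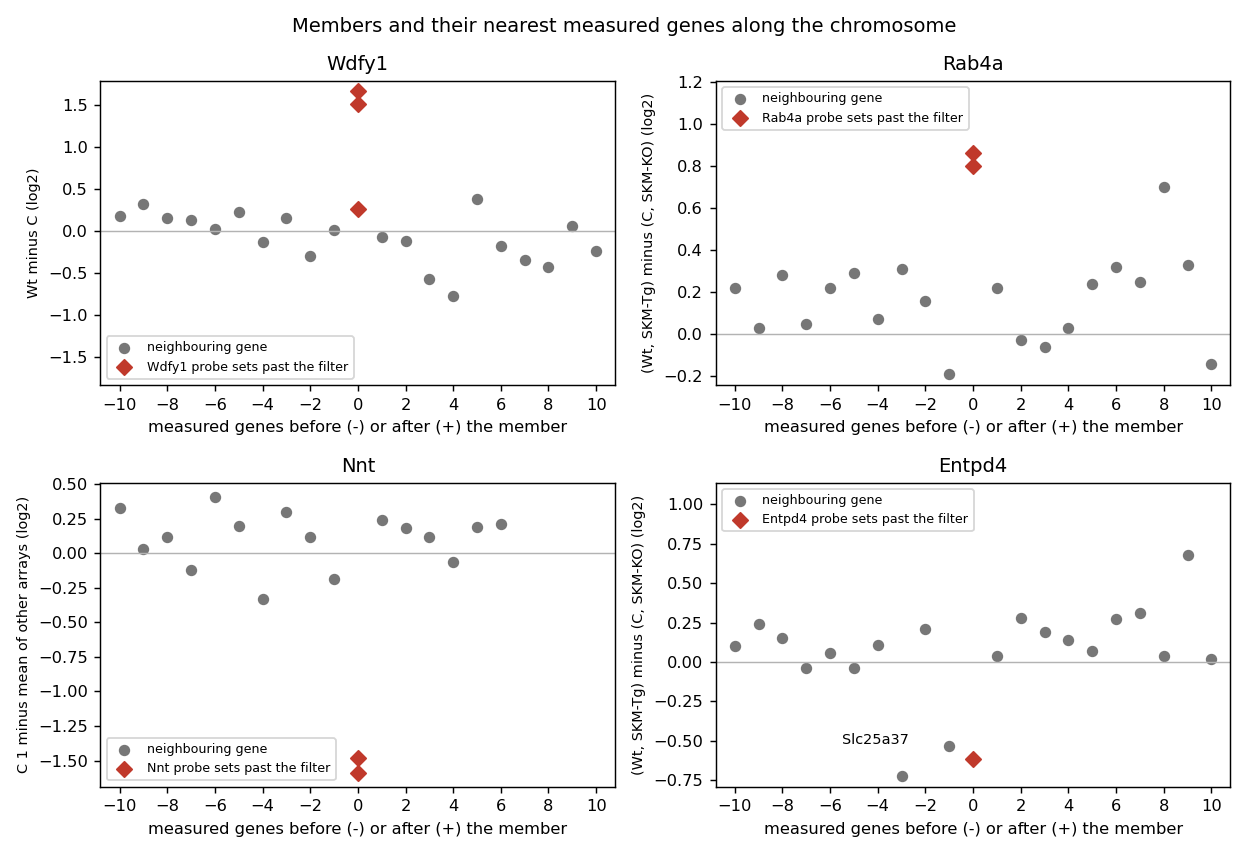
Log2 difference (vertical axis) of each gene's probe sets past the filter (red diamonds, at 0) and of the nearest measured genes on either side (grey points, numbered outward on the horizontal axis); the axis labels give the difference plotted in each panel. Grey points lie around 0 beside Wdfy1 and Nnt, while Slc25a37, at -0.53, lies beside Entpd4.

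Other nucleotidases, 9 of 14 listed, gave 0 calls in Wt minus C, SKM-KO minus C and SKM-Tg minus Wt, as was fixed in advance. These comparisons called 0.0178%, 0.0133% and 0.0% of all probe sets. Between the pairs 1 of the 9 passed, beside 14.0% of all probe sets. Enpp4, a nucleotide phosphodiesterase, fell in the transgenic pair (-0.67, limma adjusted p = 0.0170), a call kept in 9 of 13 fits without 1 array and lost without C 2 (adjusted p = 0.0604). Cant1, another Golgi nucleotidase, stood at 0.56 in Wt minus C, Entpd6 at 0.46 and Entpd2 at 0.44, the opposite sign to Entpd4 (-0.41), and none passed.

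Pisd-ps3 is listed by RefSeq as a transcribed pseudogene of Pisd, the mitochondrial decarboxylase that makes phosphatidylethanolamine. It was lower in the transgenic pair in all 3 of its probe sets. Probe set 1453145_PM_at read 7.34, 7.12 and 7.62 in C and 7.52, 7.18 and 7.46 in SKM-KO. It read 6.57, 6.54 and 6.49 in Wt and 6.30, 6.12, 6.64 and 5.98 in SKM-Tg. The pairs were apart by a gap of 0.49, and 0 of the 22519 tested probe sets had a larger gap in this direction.

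Group means of this probe set were 7.36 ± 0.25 in C, 7.39 ± 0.18 in SKM-KO, 6.53 ± 0.04 in Wt (SD, n = 3 each) and 6.26 ± 0.28 (SD, n = 4) in SKM-Tg, and the difference between the pairs was -0.98 (SE 0.12) or 1.97-fold. It was -0.57 (SE 0.07) in 1453144_PM_at and -0.45 (SE 0.08) in 1429452_PM_x_at. The pairs did not overlap there either, but the gaps were narrow, at 0.09 and 0.07, and 158 and 236 tested probe sets had larger ones. Of all tested probe sets 2.72% had both transgenic groups below both ablation groups. All 3 Pisd-ps3 probe sets had correlations of 0.91 to 0.93 with each other. C and SKM-KO overlapped in each, and Wt and SKM-Tg overlapped in 1453145_PM_at and 1429452_PM_x_at. In 1453144_PM_at SKM-Tg (5.07 to 5.27) overlapped Wt (5.26 to 5.55) only at its edge.

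The probe sets of the functional gene Pisd differed among themselves. Its brightest probe set, 1460585_PM_x_at, read 5.70 ± 0.11 in C, 5.66 ± 0.07 in SKM-KO, 5.74 ± 0.33 in Wt (SD, n = 3 each) and 5.72 ± 0.13 (SD, n = 4) in SKM-Tg. Another, 1435426_PM_s_at, was 5.70 ± 0.11, 5.65 ± 0.06, 5.42 ± 0.11 and 5.45 ± 0.07 in the same order, lower in the transgenic pair. Copies of a gene can share probes, and the 3 probe sets shared between Pisd-ps3 and another gene cannot be ascribed to either. The brightest of them read 7.93 in C, 7.96 in SKM-KO, 7.37 in Wt and 7.21 in SKM-Tg on average. RefSeq gives Pisd-ps3 no chromosome, so no neighbours were compared.

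Among 15 genes of phosphatidylethanolamine synthesis, 11 were measured. As was fixed in advance, 0 passed in Wt minus C, SKM-KO minus C or SKM-Tg minus Wt. These comparisons called 0.0178%, 0.0133% and 0.0% of all probe sets. Between the pairs 2 of the 11 passed, beside 14.0% of all probe sets. Between the pairs Cept1, the last enzyme of the cytidine pathway, fell (-0.68, limma adjusted p = 0.0358), as did Prelid3b, which belongs to a family of mitochondrial lipid carriers (-0.37, adjusted p = 0.0380). These calls were kept in 3 and 2 of 13 fits without 1 array. Ptdss2, which makes the substrate of Pisd, stood at 0.59 in Wt minus C and Etnk1, an ethanolamine kinase, at -0.59.

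The transcripts closest to Pisd-ps3 over the 13 arrays were Slc25a37 (0.939 with 1438177_PM_x_at), Entpd4 (0.909) and the chemokine gene Ccl11 (0.903). All of them had lower means in both transgenic groups, and that distance adds to the correlation over the 13 arrays. Within the ablation pair these correlations were 0.25, -0.01 and 0.04 over 6 arrays, and within the transgenic pair 0.77, 0.85 and 0.81 over 7. Entpd4 and Slc25a37 had high correlations inside both pairs, but in the ablation pair SKM-KO 1 (9.43 and 11.12) lay apart. The other ablation arrays read 9.05 to 9.20 in Entpd4 and 10.81 to 10.92 in 1438177_PM_x_at, with no steady rise. Pisd-ps3 had high correlations with either gene inside the transgenic pair alone. The difference between the pairs was not tested.

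**Figure D4:**
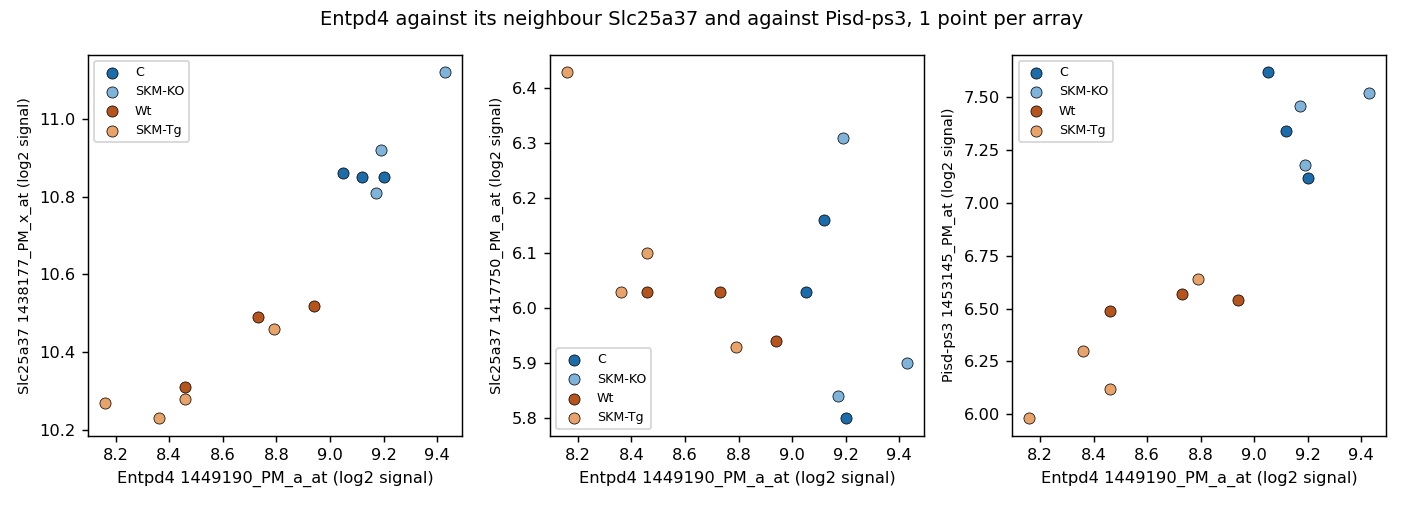
Log2 signal of Entpd4 (horizontal axis) against 2 probe sets of its neighbour Slc25a37 and against Pisd-ps3 (vertical axes), 1 point per array, coloured by group. Slc25a37 1438177_PM_x_at rises with Entpd4 within Wt and SKM-Tg. Within C and SKM-KO, SKM-KO 1 is the highest in both and the other arrays show no steady rise. Slc25a37 1417750_PM_a_at does not rise with Entpd4, and Pisd-ps3 separates the pairs without following Entpd4 inside C and SKM-KO.

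The 5 genes thus fall into 3 patterns over the arrays. Wdfy1 had C apart from 10 arrays, Nnt had C 1 apart from 12, and Rab4a, Entpd4 and Pisd-ps3 had the ablation pair apart from the transgenic pair, Rab4a in the opposite direction to the other two. Correlations between the genes over the 13 arrays, to which the distance between the pairs adds, ran from -0.76 for Rab4a and Pisd-ps3 to 0.91 for Entpd4 and Pisd-ps3. Nnt had 0.69 with Wdfy1 (1424749_PM_at), both of them lowest in C 1, 0.39 with Rab4a and -0.40 with Entpd4 and with Pisd-ps3. In none of the 5 did the groups follow the Trp53inp2 signal, which was low in SKM-KO alone. The genes were chosen for that, so it is no finding about them.

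The difference between the pairs is not specific to these genes: 3158 of 22519 probe sets passed it (14.0%), with 1299 (5.77%) higher and 1859 (8.26%) lower in the transgenic pair. The total ran from 22 without C 2 to 9830 without Wt 3, and 12 of the 13 arrays moved it by over 1.5 times when left out. The labels give no date, colony or handling for the pairs, so any difference of that kind cannot be told apart from the pair. Each sample title carries a number, lower in every sample of the ablation pair than in the transgenic pair, and its meaning is not given. Wt minus C called 4 probe sets, 0.0178%, which are those of Wdfy1 and Rab4a that defined the patterns, and 5814 had an unadjusted p under 0.05. The count was 1 without C 1, C 2, C 3 or Wt 1, 2 without SKM-KO 2, Wt 2 or SKM-Tg 2, and 8365 without Wt 3. SKM-KO minus C called 3, Trp53inp2 and the 2 Wdfy1 probe sets chosen on these arrays, whose calls are no independent evidence, and 1 probe set, with a lower signal in SKM-KO, without C 1, C 2, SKM-KO 2, SKM-KO 3, Wt 1, SKM-Tg 1, SKM-Tg 2 or SKM-Tg 4. In SKM-Tg minus Wt limma called 0 probe sets (0.0%), and 1447 had an unadjusted p under 0.05; it called 26 without Wt 3 and 1 without SKM-Tg 4.

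A list of 14 other genes known to vary between mouse strains or C57BL/6 substrains added little, since 4 were measured past the filter. Glo1, a glyoxalase with a copy-number variant among inbred strains, stood at -0.30 in Wt minus C, and Alad, of haem synthesis, which also varies in copy number, at 0.52. Cyfip2, which carries a substrain variant in C57BL/6N, stood at 0.21 and the aryl hydrocarbon receptor gene Ahr at -0.11. In each of the 4 comparisons 0 of these 4 genes passed limma's test. Of all probe sets 14.0% passed between the pairs and at most 0.0178% in the others, where the 0 was fixed in advance.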

How the data were processed

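The deposited values are log2 signals that the authors made with RMA, per the submitters' processing notes; RMA removes background, brings the arrays to 1 distribution and combines the probes of a set; its version is not given in the sources used here. All 13 value columns were used. Control probe sets (104 of 45141) were set aside. Genes came from GEO's platform annotation: 28898 probe sets had 1 symbol, 551 several and 15588 none here. Tests covered the 22519 probe sets with a mean of at least 4.9, the median of all means. limma 3.58.1 (R 4.3.3) fitted 1 mean per group to all arrays, with two-sided tests and Benjamini-Hochberg adjustment over all probe sets at a threshold of 0.05; SEs are those of this fit. Lists and neighbours used 1 probe set per gene, the brightest, with gene order from RefSeq (GRCm38.p6). The share of 14.0% set beside them counts all probe sets, and by 1 probe set per gene it was 14.7%. No build is named for the arrays, so no positions are given. The fit was checked on simulated data with independent noise in each probe set, so the check does not cover shifts shared by a whole array. Named genes were all members, the 3 closest probe sets, the 2 neighbours and up to 4 list genes with the smallest p in Wt minus C, and calls. The members and lists were chosen with earlier results of these data known. No batch is labelled, and p-values cover the spread between these 13 animals; their number limits the precision.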

Additional observations from a re-analysis of the deposited data

Results flagged for a closer look

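Opposite directions in the 2 pairs were seen in 4 of the 13 probe sets of the 5 genes. In each of the 4, every SKM-KO array lay above the mean of C and every SKM-Tg array below the mean of Wt. The share of all tested probe sets that do the same was not counted, so 4 of 13 cannot be called unusual. Choosing genes with a low C or a high Wt, as in Wdfy1 and Rab4a, favours these signs, since those means are subtracted. The difference of the effects, SKM-Tg minus Wt less SKM-KO minus C, was -0.95 for the dim Wdfy1 probe set 1435588_PM_at, -0.44 and -0.51 for the Rab4a probe sets 1418341_PM_at and 1449048_PM_s_at, and -0.34 for the Pisd-ps3 probe set 1453144_PM_at. These differences were not tested, since the genes were chosen on the same arrays. For Wdfy1 the part from SKM-Tg was small, -0.27 to -0.01 per array, against 0.52 to 1.06 in SKM-KO, and it rests on Wt 3: without that array SKM-Tg minus Wt was 0.225, the same direction as in SKM-KO. No member had an outlying array within SKM-Tg by Dixon's criterion, and groups of 3 cannot be judged by it.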

How the results depend on the processing

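Member differences were recomputed 852 times over the normalizations and single arrays left out: 839 moved by less than 1 SD and 13 by more. The sign changed in 25, all but 3 of them from differences of at most 0.0927 in size that moved by less than 1 SD. The 3 were Nnt 1416105_PM_at in SKM-KO minus C (0.446, and -0.0571 without C 1) and, in SKM-Tg minus Wt, Wdfy1 1435588_PM_at (-0.126, and 0.225 without Wt 3) and 1437358_PM_at (-0.222 without Wt 2). The 13 were those of Nnt without C 1, of 2 Wdfy1 probe sets without Wt 2 or Wt 3, and of Wdfy1 and Pisd-ps3 with the mean of all their probe sets (Wdfy1 Wt minus C was 0.27 in its brightest probe set and 1.06 as that mean). Counts of calls moved more. Wt minus C called 4 probe sets, and 14869 with array quality weights, whose estimate stopped before it converged, 0 with only the groups compared and 1 with 1 probe set per gene; leaving out 1 array gave 1 to 8365. SKM-KO minus C called 3, and 1 with 1 probe set per gene; leaving out 1 array gave 1 to 3. SKM-Tg minus Wt called 0, and 5634 with array weights; leaving out 1 array gave 0 to 26. Between the pairs 3158 passed, and 1634 with no filter, 13224 with array weights and 1756 with 1 probe set per gene and the adjustment over those alone; leaving out 1 array gave 22 to 9830. The split of calls between the pairs was 1299 higher and 1859 lower, and 1817 and 1856 with quantile normalization. No paired analysis was possible because the labels give no replicate numbers that the groups share.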

Other observations

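Other probe sets were also low in C 1, and these genes were chosen after their values were seen. Snd1, which encodes a staphylococcal nuclease-domain protein, has 1 probe set. It read 6.11 in C 1 against 8.73 to 9.64 in the other 12 arrays, a 7.66-fold lower signal than their mean, and its correlation with Nnt over the 13 arrays was 0.85. The metal ion transporter gene Slc39a14 was lowest in C 1 in all 3 of its probe sets, with differences of -1.32, -1.84 and -1.48 from the mean of the others.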
